A study of Macaca mulatta with 51 samples.

Results

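Interferon-stimulated genes (ISGs) were described here in subcutaneous adipose tissue (AT) and gastrocnemius skeletal muscle (SM) of rhesus macaques (Macaca mulatta) before, at the end of and after treatment with FGF21, a fibroblast growth factor that acts as a metabolic hormone. The genes were chosen by name, from a list of 35 symbols of the antiviral interferon response, and 34 of them had an entry among the 16033 genes of the count table. IFIT1 was not analysed here. All 34 were tested in AT, where 13367 genes passed the filter on low counts, and 33 were tested in SM, where 12617 genes passed it. OASL was under the filter in SM.

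The animals were obese, non-diabetic adult males and ovariectomised females of 1 cohort, kept on a high-fat diet for years and each sampled repeatedly. Pre-treatment (Pre) biopsies were taken before the first injection, post-treatment (Post) biopsies after 12 weeks of daily subcutaneous injections of native human FGF21 at rising doses, and washout (Wash) biopsies 16 weeks after treatment was stopped. No untreated group was sampled, so time and treatment cannot be told apart, and 1 animal was held at a lower final dose than the rest. AT was represented by 10 Pre, 9 Post and 8 Wash libraries and SM by 6, 8 and 7, each library being 1 punch biopsy of 1 animal. A biopsy holds several cell types, so fewer cells of a type and less RNA per cell cannot be told apart in any value given here.

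Type I and type III interferons are secreted by cells that sense viral nucleic acid. They bind paired receptors on neighbouring cells, and the receptor-bound kinases JAK1 and TYK2 phosphorylate STAT2, which joins IRF9 in a transcription complex that switches on the ISGs. The products of these genes bind viral RNA (the IFIT proteins), make a second messenger that activates RNA decay (OAS1, OAS2 and OAS3), trap nucleocapsids (MX1 and MX2), hold budding virions at the cell surface (BST2), stop protein synthesis (EIF2AK2, also called PKR) and sense RNA (DDX58, IFIH1). ISG15 is a ubiquitin-like tag, HERC5 attaches it and USP18 removes it and also dampens the receptor. In adipose tissue, ISG expression is known from adipocytes, vascular cells and macrophages alike.

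Total counts per library ran from 14455195 to 23940980. The factors of the trimmed mean of M-values (TMM), which correct for RNA composition, ran from 0.928 to 1.09 in AT and from 0.789 to 1.46 in SM. The tissue labels held: 5 adipocyte markers summed to 14373 to 48659 CPM (counts scaled to a common library size) in AT and 68.5 to 1609 in SM, and 8 muscle fibre markers to 44099 to 230551 CPM in SM and 53.3 to 167 in AT. Levels below are CPM on TMM-scaled library sizes and were compared within a gene only, since no transcript lengths were used. Identifiers are the human Ensembl ones that the table pairs with each macaque symbol, and the table gives no coordinates.

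In AT, animal accounted for more of the variance than time point for 32 of 34 ISGs, next to 70.0% of all genes tested. With 10 animals and 3 time points, part of this excess is built into the shares. Animal 21189 was the highest of 10 animals for 30 of 34 ISGs at Pre, the highest of 9 for 23 at Post, and the highest of 8 for 24 at Wash. For 19 ISGs it was the highest at all 3 time points, against 115 of the 13367 genes tested (0.860%).

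**Figure D1:**
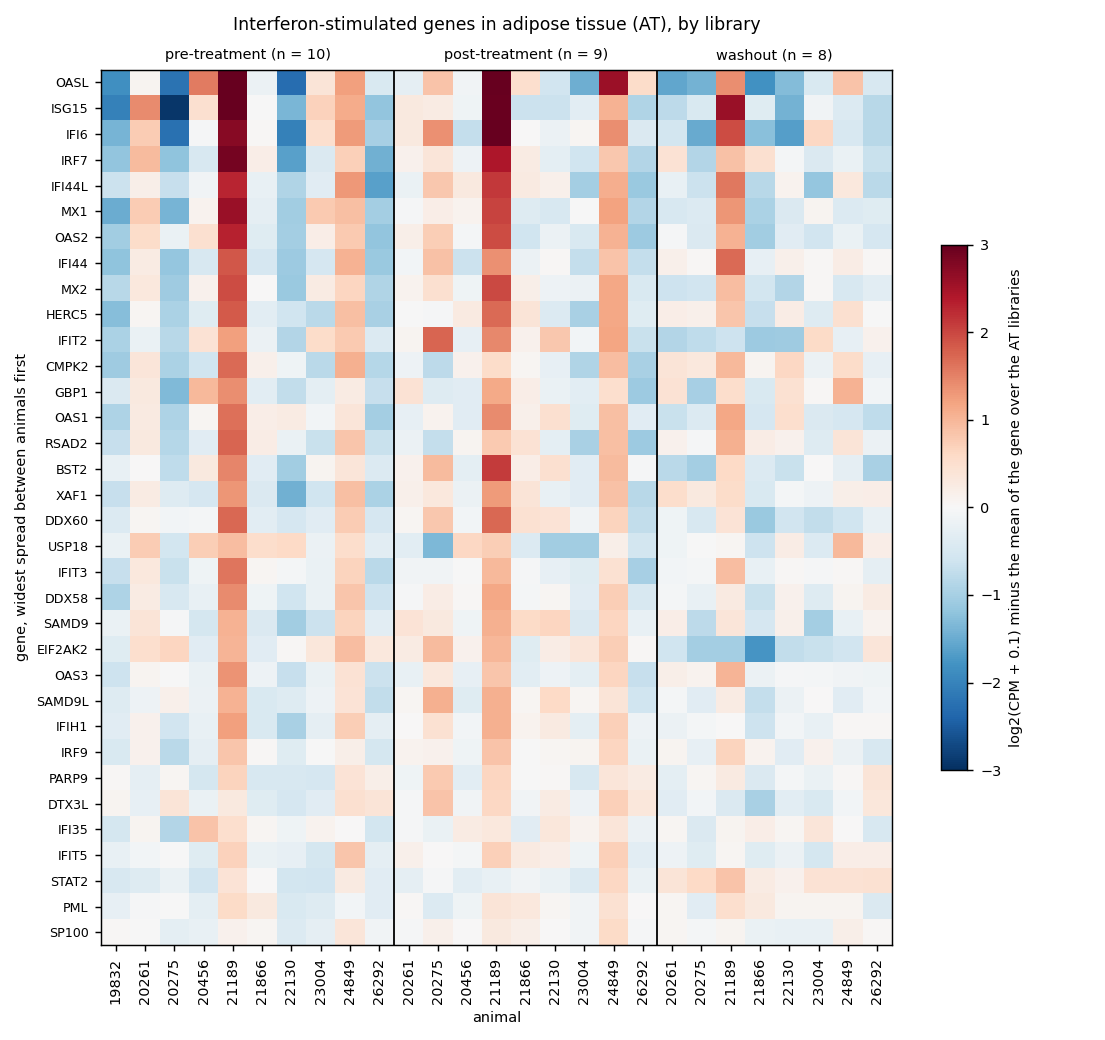
Levels of 34 ISGs (rows, widest spread between animals first) in the 27 AT libraries (columns, by time point and animal), as log2(CPM + 0.1) minus the mean of the gene over the libraries. Animal 21189 is red down most of the column at Pre and Post and for fewer genes at Wash, and animal 24849 is the next.

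ISG15 (ENSG00000187608), the ubiquitin-like tag, varied widely among animals. In animal 21189 it stood at 71.3 CPM at Pre, 44.9 at Post and 34.6 at Wash. The other 9 animals ran from 0.653 to 15.2 CPM with a median of 5.58 at Pre, the other 8 from 2.94 to 11.8 with a median of 4.81 at Post, and the other 7 from 2.03 to 5.26 with a median of 4.10 at Wash. Animal 21189 was thus outside the range of the rest at each time point.

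IFI6 (ENSG00000126709), a small mitochondrial and endoplasmic reticulum protein that limits cell death and viral replication, was also high in that animal. Its values there were 734 CPM at Pre, 1066 at Post and 428 at Wash. Among the other animals IFI6 ran from 23.4 to 268 CPM at Pre, 67.0 to 292 at Post and 35.5 to 171 at Wash. OASL (ENSG00000135114), an OAS relative that boosts RNA sensing by DDX58, was at 58.3, 48.5 and 15.1 CPM in animal 21189, against 1.09 to 16.9, 1.98 to 34.4 and 1.55 to 10.3 in the rest. ISG15, IFI6 and OASL were the 3 ISGs with the widest spread within time points in AT, with SDs of log2 CPM of 1.51, 1.36 and 1.52.

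IRF7, the transcription factor that amplifies interferon production, followed the same order. It was at 20.1, 14.8 and 5.01 CPM in animal 21189 at Pre, Post and Wash, and at 0.80 to 5.29, 1.40 to 4.72 and 1.40 to 3.78 CPM in the others. MX1 was at 423, 284 and 176 CPM in this animal and no higher than 130.1, 162 and 73.4 CPM in any other. Over the 3 time points, the mean level in animal 21189 was 11.2 times the median of the 7 other animals with 3 AT libraries for ISG15, 8.94 times for OASL, 6.69 times for IRF7, 6.39 times for IFI6 and 5.52 times for MX1. These were the largest such ratios among the ISGs, and the others ran from 1.16 for SP100 to 4.49 for IFI44L.

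**Figure D2:**
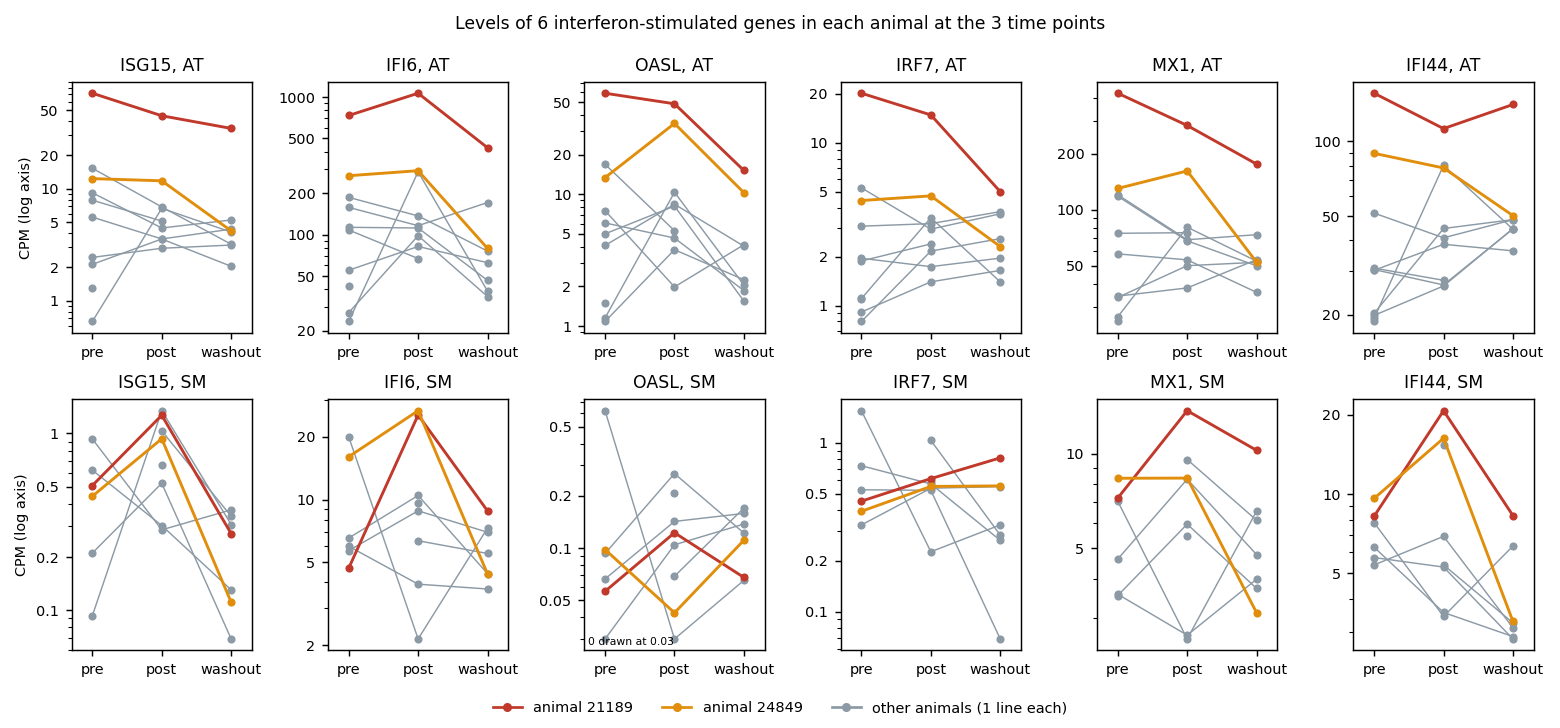
CPM on a log axis of 6 ISGs in AT (top) and SM (bottom) at pre-treatment, post-treatment and washout, with 1 line per animal and 1 point per library. Animal 21189 lies above the other animals at each time point in AT, for ISG15 at 71.3, 44.9 and 34.6 CPM. At Pre in SM it is within their range for ISG15, OASL, IRF7, MX1 and IFI44 and below it for IFI6.

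A test of the animal term in the model of time point and animal (edgeR quasi-likelihood F test, adjusted p under 0.05, no fold limit) called 31 of 34 ISGs in AT (91.2%), and 14.8% of all genes tested. The smallest adjusted p was 9.84e-05, for ISG15. EIF2AK2 (adjusted p = 0.0741), STAT2 (0.0597) and IFIT2 (0.381) did not pass. Without animal 21189 the count was 11 of 34, against 12.8% of all genes, and those 11 were CMPK2, DTX3L, HERC5, IFI35, IFI44L, IFIT3, IFIT5, OAS2, PARP9, RSAD2 and USP18. Leaving out any other single animal gave 26 to 31, against 9.83% to 17.7% of all genes.

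Shares of variance were computed as a description, without a test. Animal accounted for a median of 70.5% of the variance of an ISG in AT (30.0% for IFIT2 to 85.3% for IFIT3), and for a median of 37.8% over all genes tested. Time point accounted for a median of 6.96% over the ISGs and 19.7% over all genes. Without animal 21189 the median share of animal was 54.4% for the ISGs and 37.0% for all genes. In SM the median shares of animal were 42.6% for the ISGs and 43.4% for all genes.

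When the 34 AT genes were each standardized and averaged per library, animal 21189 scored 2.04, 1.77 and 0.878 SD units at Pre, Post and Wash and animal 24849 scored 0.971, 1.24 and 0.0670. No other AT library exceeded 0.434. The SD of this mean level between libraries was 0.977 at Pre, 0.793 at Post and 0.470 at Wash, and a difference in spread was not tested. Both animals were thus in the top positions at each time point, while their distance from the rest was smallest at Wash.

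**Figure D3:**
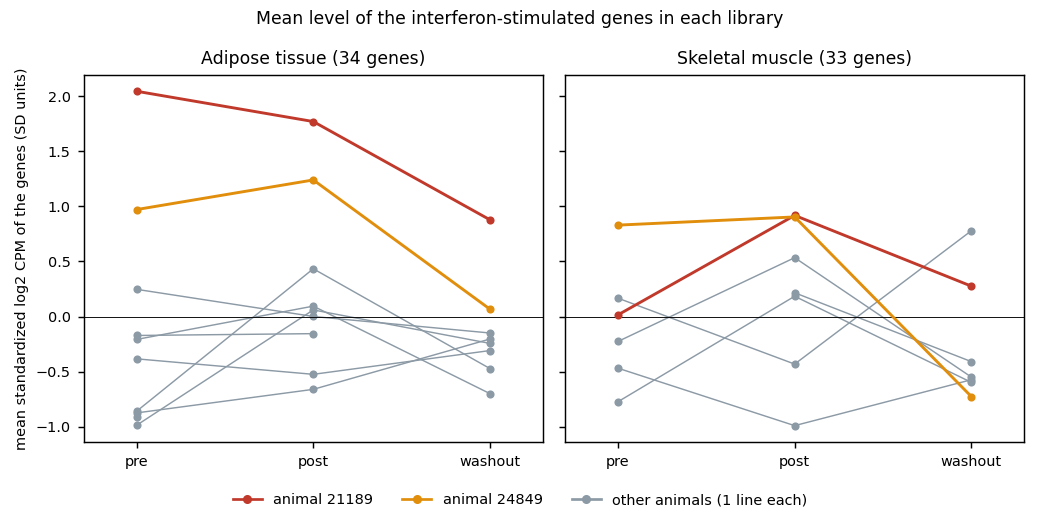
Mean standardized log2 CPM of the ISGs in each library (SD units, y axis) at the 3 time points, with 1 line per animal, for 34 genes in AT and 33 in SM. Animals 21189 and 24849 are the top 2 at each time point in AT, and in SM the order of animals changes between time points.

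The ISGs rose and fell together across AT libraries. After time point means were removed, the median Pearson correlation over 561 pairs of ISGs was 0.685 (27 libraries of 10 animals, so the points are not independent), 556 pairs were above 0, and the median over all gene pairs was -0.003. It was 0.531 without animal 21189. IFI44, a GTP-binding protein of uncertain role, was most like the rest (median r of 0.846), and DTX3L (0.356) and EIF2AK2 (0.419) least. In the RefSeq annotation of assembly T2T-MMU8v2.0, where all 34 matched, 7 pairs of ISGs were next to each other. The closest correlations among these neighbours were those of RSAD2 with CMPK2 (0.965 in AT, 0.909 in SM), MX1 with MX2 (0.960 and 0.758) and IFI44 with IFI44L (0.923 and 0.728), and the lowest in AT was that of IFIT2 with IFIT3 (0.597). Neighbours of 1 family can share reads, and how such reads were counted is not given in the sources used here.

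Of genes outside the list, the 10 whose levels ran closest to the mean of the ISGs in AT were HRASLS2, DHX58, EPSTI1, SIGLEC1, CXCL10, CXCL11, PARP14, TRIM22, APOL2 and ODF3B, with r between 0.815 and 0.880 over 27 libraries. CXCL10 and CXCL11 are interferon-induced chemokines that attract T cells, SIGLEC1 is a macrophage lectin and DHX58 is a regulator of RNA sensors. In SM the 10 were CD83, TRIM22, IL33, PARP14, STOM, SOAT1, CYBRD1, CYP27C1, SLFN5 and ARHGEF3, with r between 0.872 and 0.921 over 21 libraries. TRIM22, an antiviral ubiquitin ligase, and PARP14, an ADP-ribosyltransferase, were in both lists.

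A fixed list of other interferon-induced genes also held animal effects. Of 48 tested in AT, 20 had an animal effect, next to 14.8% of all genes tested and 31 of 34 ISGs. The 20 included LGALS3BP and IFI27, each with an adjusted p of 1.32e-07 (edgeR F test). This count was not taken without animal 21189. That animal had the highest summed level of the 48 at Pre (4540 CPM, median of the libraries 2912), Post (5280.1, 3202) and Wash (3880, 2837). Summed markers of other cell types did not all rank this animal first. Its 12 macrophage markers summed to 2525 CPM at Pre (rank 3 of 10), 5769.8 at Post (rank 2 of 9) and 843 at Wash (rank 4 of 8). The sum of its 6 T cell markers ranked 1, 1 and 4 at the 3 time points, and that of its 6 endothelial markers 1, 8 and 1. Its B cell markers ranked 3, 3 and 3, NK cell markers 3, 1 and 3 and neutrophil markers 9, 1 and 2. Its adipocyte markers ranked 8, 6 and 8 and erythroid markers 9, 7 and 4. Across AT libraries the summed macrophage markers had an r of 0.359 with the ISG level, T cell markers 0.278, NK cell markers 0.540 and plasmacytoid dendritic cell markers 0.0272, where only 2 of 5 listed genes were tested and CLEC4C was under the filter. The r was 0.391 for B cell, 0.103 for endothelial, -0.204 for neutrophil, -0.290 for adipocyte and -0.414 for erythroid markers. The part of these cell types in the ISG levels was not tested.

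Whether treatment changed the ISGs was asked first by comparing Post with Pre in AT. A gene counted as differentially expressed (DE) where its log2 fold change exceeded 0.26 in size and its adjusted p was under 0.05. USP18 (ENSG00000184979), which strips ISG15 from proteins and dampens interferon receptor signalling, was DE and lower at Post, and it was 1 of 34 (2.94%), where 15.5% of all genes tested were DE. Its level ran from 14.4 to 40.3 CPM with a median of 30.4 at Pre and from 8.24 to 35.4 with a median of 15.9 at Post. The groups overlapped, but USP18 was lower at Post in 9 of 9 animals, and the log2 fold change was -0.68 (SE 0.19, adjusted p = 0.0263, edgeR). This call was lost without animal 20261 or animal 22130 and without the animal term.

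The other 33 ISGs were not DE at Post. An unadjusted p under 0.05 (edgeR) was reached by 7 of 34 ISGs, next to 4581 of all 13367 genes tested. SP100, a nuclear body protein, had an adjusted p of 0.0440 but a log2 fold change of 0.21, under the limit. BST2 had the largest positive value of those 7, with 0.52 (SE 0.20, adjusted p = 0.0805), and in 7 of 9 animals it was higher at Post. The median log2 fold change was 0.20 over the ISGs and 0.03 over all genes, and 26 of 34 were above 0. IFI6 had a log2 fold change of 0.53 with an SE of 0.36 (adjusted p = 0.303, edgeR), and ISG15 of -0.21 with an SE of 0.32 (adjusted p = 0.674).

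Comparing Wash with Post in AT asked how the ISGs moved once treatment had stopped. At Wash, 12 of 34 ISGs were DE (35.3%), next to 35.4% of all genes. Of these, 11 were lower at Wash, namely BST2, DDX60, DTX3L, EIF2AK2, IFI6, IFIT2, IFIT5, MX2, OASL, SAMD9 and SAMD9L (32.4% of 34, next to 17.8% of all genes DE in that direction), and STAT2 was higher. The median log2 fold change was -0.35 over the ISGs and -0.0021 over all genes. With library size alone in place of TMM, which moved each value by a median of 0.08 (log2), the split was 9 lower and 3 higher, and 4 values of the 34 changed sign. That fit called 35.4% of all genes DE. Without the animal term the count was 6 of 34, next to 29.7% of all genes. Leaving out 1 animal reduced the 11 lower ISGs to 7 without 21189, 21866 or 24849, with 3, 2 and 2 higher. In those fits 30.2%, 32.1% and 31.9% of all genes were DE in either direction.

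EIF2AK2 (ENSG00000055332), the kinase that halts translation when it binds double-stranded RNA, fell furthest in relation to its error. It ran from 13.0 to 33.9 CPM with a median of 21.2 at Pre, from 13.1 to 33.6 with a median of 19.8 at Post, and from 4.84 to 21.6 with a median of 10.3 at Wash. In 7 of 8 Wash libraries it was at or under 11.2 CPM, below each Pre and Post library, and the exception was animal 26292 at 21.6 CPM, whose Wash library carries an identifier from a series that no other AT library shares. The log2 fold change of Wash against Post was -1.15 (SE 0.19, adjusted p = 0.000202, edgeR), with a fall in 7 of 8 animals.

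STAT2 (ENSG00000170581), a signal transducer of the interferon receptors, went the other way. It ran from 74.7 to 149 CPM with a median of 86.7 at Pre, from 83.8 to 171 with a median of 96.7 at Post, and from 122 to 202 with a median of 150.4 at Wash. Animal 24849, at 171 CPM, was alone at Post in lying above the lowest Wash library. In 7 of 8 animals STAT2 was higher at Wash than at Post, and its log2 fold change was 0.53 (SE 0.11, adjusted p = 0.00127, edgeR).

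BST2 (ENSG00000130303), or tetherin, was at 42.9 to 234 CPM with a median of 62.3 at Post and at 26.9 to 82.4 with a median of 37.9 at Wash. Its log2 fold change was -0.96 (SE 0.21, adjusted p = 0.00209), and its groups overlapped. DTX3L (ENSG00000163840), a ubiquitin ligase that works with PARP9, went from 51.0 to 103 CPM at Post to 28.9 to 72.6 CPM at Wash, with -0.59 on the log2 scale (SE 0.11, adjusted p = 0.000393). DDX60, a helper of RNA sensing, fell by 0.82 on that scale (SE 0.19, adjusted p = 0.00305). Each of these 3 fell in 7 of 8 animals.

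The falls of OASL, IFI6 and IFIT2 had larger errors than those of EIF2AK2, BST2, DTX3L and DDX60. OASL changed by -1.28 on the log2 scale (SE 0.41, adjusted p = 0.0201), with levels of 1.98 to 48.5 CPM at Post and 1.55 to 15.1 at Wash. IFI6 had -1.17 (SE 0.37, adjusted p = 0.0184), from 67.0 to 1066 CPM to 35.5 to 428 CPM. IFIT2 had -1.05 (SE 0.34, adjusted p = 0.0218), from 81.4 to 430.3 CPM to 60.8 to 192 CPM, and fell in 6 of 8 animals. MX2, an antiviral GTPase at the nuclear pore, had -0.66 (SE 0.21, adjusted p = 0.0182). SAMD9 and SAMD9L, paralogs that restrict poxviruses, had -0.59 (SE 0.19) and -0.48 (SE 0.17), and IFIT5 had -0.35 (SE 0.12). Of 21 alternatives, the call was lost in 8 for SAMD9L, 6 for OASL, 5 each for IFIT2 and IFIT5, 3 for SAMD9, 2 for MX2 and 1 for IFI6.

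Among ISGs that were not DE at Wash, RSAD2, CMPK2, GBP1, USP18, IFI44, IFIT3 and OAS3 had values above 0, from 0.09 for OAS3 and IFIT3 to 0.49 for USP18 (SE 0.21, adjusted p = 0.0661). The rest had values below 0, from -0.03 for IFI35 to -0.49 for IFI44L (SE 0.22, adjusted p = 0.0915). The 12 macrophage markers were all DE and lower at Wash, with a median log2 fold change of -1.79, and their sums ran from 1112 to 7134 CPM (median 3203) at Post and from 489.8 to 3165 CPM (median 826) at Wash. The 5 adipocyte markers had a median of 0.22 with 1 DE and higher. The part of these cell types in the falls was not tested.

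**Figure D4:**
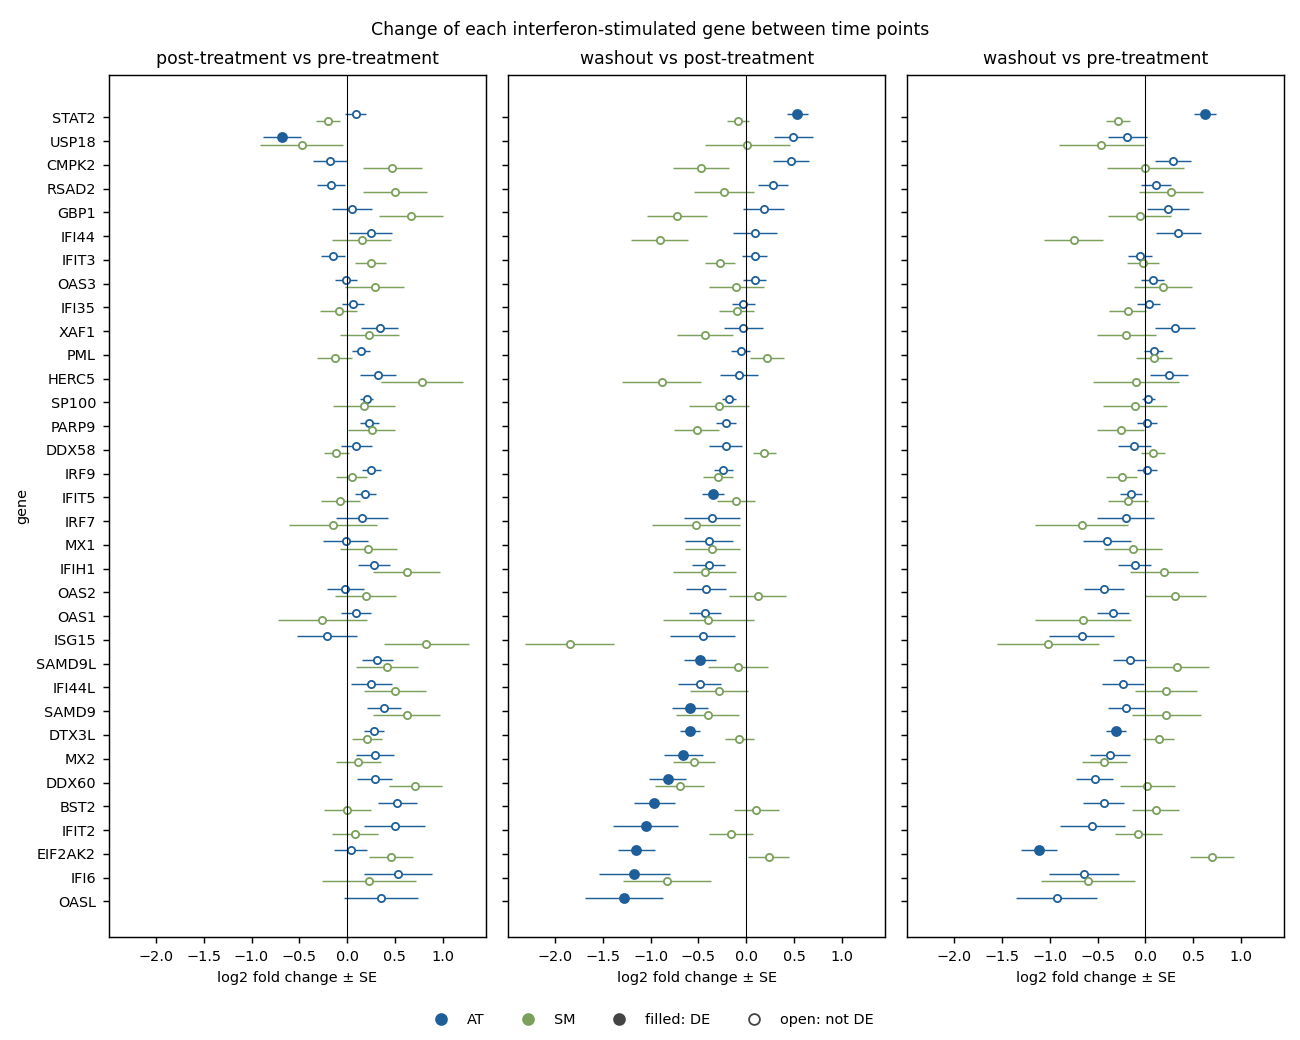
Log2 fold change with its SE for each ISG between time points in AT (blue, 34 genes) and SM (green, 33 genes), ordered by the change from post-treatment to washout in AT. Filled points are DE: 1 in the left panel, 12 in the middle and 3 in the right, and none of them is from SM.

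Against Pre, 3 of 34 ISGs were DE at Wash in AT (8.82%), next to 20.5% of all genes. These comparisons share the Wash and Pre libraries with those above, so they are not independent of them. STAT2 was higher in 8 of 8 animals, and the log2 fold change was 0.62 (SE 0.11, adjusted p = 0.000407, edgeR). EIF2AK2 had -1.11 (SE 0.19, adjusted p = 0.000287) and DTX3L -0.31 (SE 0.11, adjusted p = 0.0471), each lower in 7 of 8. The DTX3L call was lost in 13 of 21 alternatives, while those of STAT2 and EIF2AK2 were kept in each of 21. The median over the ISGs was -0.16, and -0.02 over all genes. Library size alone moved the values by a median of 0.11.

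IRF9 and STAT2 belong to the same transcription complex. In AT IRF9 was at 41.6 ± 15.0 CPM at Pre (SD, n = 10), 49.9 ± 13.7 at Post (n = 9) and 43.3 ± 11.9 at Wash (n = 8), and no comparison called it. STAT2 was at 97.2 ± 26.4, 104 ± 26.0 and 153 ± 24.3 CPM. IRF7 was at 4.07 ± 5.85, 4.09 ± 4.14 and 2.79 ± 1.25 CPM and was called in no comparison.

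Upstream of the ISGs, interferon genes themselves were near or under the limit of detection. Of 9 ligand genes listed, IFNE passed the filter, at 0 to 1.95 CPM in AT, and the other 8 did not. IFNE was DE and higher at Wash, with log2 fold changes of 1.45 (SE 0.56) against Post and 2.26 (SE 0.62) against Pre. Of 5 receptor genes tested, 4 were DE and lower at Wash than at Post in AT: IFNAR1 (-0.46, SE 0.10), IFNGR1 (-0.39, SE 0.10), IFNGR2 (-0.51, SE 0.12) and IL10RB (-0.51, SE 0.13). Over all genes tested in AT, 17.8% were DE and lower in that comparison. IFNGR1 was also DE and higher at Post than at Pre (0.37, SE 0.10), as were 6.98% of all genes. IFNAR1 was also DE and lower at Wash than at Pre (-0.43, SE 0.10), as were 7.96% of all genes.

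Among kinases and transcription factors, IRF2 and IRF5 were DE and higher at Post than at Pre, and both were DE and lower at Wash than at Post. JAK1, the kinase shared by interferon receptors, was also DE and lower at Wash than at Post, with -0.47 (SE 0.08). Among 12 sensors and adaptors, TLR8, an endosomal RNA receptor of myeloid cells, was higher at Post (0.97, SE 0.32) and lower at Wash than at Post (-1.87, SE 0.34). MAVS, the mitochondrial adaptor of DDX58 and IFIH1, was higher at Wash than at Post (0.52, SE 0.10), and TICAM1 was lower (-0.43, SE 0.17). TLR3 was lower at Post than at Pre (-0.84, SE 0.18). Of 7 brakes on the pathway, SOCS1, which blocks JAK kinases, was higher at Post (0.90, SE 0.22) and lower at Wash than at Post (-1.59, SE 0.24), and PIAS1 (-0.89, SE 0.11), PTPN11 (-0.88, SE 0.22) and PTPN6 (-0.72, SE 0.26) were also lower at Wash. These calls stand next to shares over all AT genes of 6.98% higher and 8.49% lower at Post against Pre. At Wash against Post the shares were 17.6% higher and 17.8% lower. Compared with Pre, JAK1 (-0.33, SE 0.08), TLR3 (-0.89, SE 0.19), PIAS1 (-0.65, SE 0.11) and PTPN11 (-1.46, SE 0.215) were DE and lower at Wash. MAVS was DE and higher (0.30, SE 0.10). Over all genes 12.5% were higher and 7.96% lower there.

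Among 48 other interferon-induced genes tested in AT, calls went in both directions. At Post, 5 were DE and higher than at Pre (TRIM22, PLSCR1, PSMB8, UBE2L6 and EPSTI1) and GBP2 was lower, at -1.38 on the log2 scale (SE 0.26). Over all genes tested, 15.5% were DE in that comparison, 6.98% higher and 8.49% lower. At Wash against Post, 11 were lower, from IFI30 at -2.03 (SE 0.45) to ZNFX1 at -0.33 (SE 0.10), and 5 were higher, among them GBP2 at 1.21 (SE 0.27) and UBA7, the enzyme that activates ISG15. The median was -0.11. Against Pre, 9 were higher at Wash, with UBA7 at 1.10 (SE 0.12), and 0 were lower, next to 12.5% of all genes higher and 7.96% lower. The 16 of 48 called at Wash against Post stand next to the 35.4% of all genes given above.

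In SM no ISG was DE in any of the 3 comparisons, and few genes were: 0% of genes tested at Post against Pre, 0.190% at Wash against Post and 0.0634% at Wash against Pre. By edgeR, 1, 7 and 3 of the 33 ISGs had an unadjusted p under 0.05 in these comparisons. Over all 12617 genes tested, 410, 2181 and 1691 did. limma and DESeq2 also called 0 ISGs in each. With the series of library identifiers as a further term, 0, 2 and 1 ISGs were called, and at Wash against Post and against Pre that fit called 2650 and 1355 of the 12617 genes. These series were spread unevenly over the SM time points: the first held Pre and Post libraries and no Wash library. The median log2 fold changes over the ISGs were 0.22, -0.29 and -0.08, with 25, 6 and 13 of 33 above 0. With library size alone the median at Wash against Post was -0.43. The lists of ligands, receptors, kinases and transcription factors, sensors, brakes and other interferon-induced genes also had 0 DE genes in SM.

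ISG15 had the smallest p of the ISGs in SM. It was at 0.0932 to 0.931 CPM at Pre, 0.285 to 1.35 at Post and 0.0689 to 0.370 at Wash, which is 1 to 31 reads per library, and its log2 fold change of Wash against Post was -1.85 (SE 0.47, adjusted p = 0.107, edgeR). IFI44 had -0.90 (SE 0.30, adjusted p = 0.163) and DDX60, lower in 7 of 7 animals, had -0.70 (SE 0.26, adjusted p = 0.201). Of the 34 ISGs, 8 had a library with fewer than 10 reads in SM and no ISG did in AT.

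The animal term called 1 of 33 ISGs in SM (3.03%), next to 5.70% of all genes. That gene was OAS1, which makes the activator of RNase L, with an adjusted p of 0.0485. It ran from 0.839 to 4.67 CPM at Pre, from 0.528 to 4.42 at Post and from 0.326 to 10.3 at Wash, and the highest Wash value was that of animal 22130, where the next was 1.31. Leaving out 1 animal ended this call in 6 of 8 fits, namely those without 19832, 20275, 20456, 21189, 22130 or 23004. OAS1, IFI6 and USP18 had the widest spread within time points in SM, with SDs of log2 CPM of 1.22, 0.924 and 0.908. IFI6 ran from 4.68 to 20.02 CPM at Pre, 2.14 to 26.7 at Post and 3.72 to 8.82 at Wash, and USP18 from 0.369 to 4.10, 0.642 to 3.37 and 0.611 to 3.59 CPM. Whether the animal effect differs between AT and SM was not tested.

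In SM, animal 21189 was the highest for 0 of 33 ISGs at Pre, 7 at Post and 12 at Wash, next to 13.0%, 24.8% and 9.86% of all genes. Its mean standardized levels were 0.0155, 0.918 and 0.276, the last 2 being the highest of 8 libraries and the next to highest of 7. At Pre, animal 24849 was the highest of 6 for 20 ISGs. In the 21 SM libraries the mean ISG level had an r of 0.725 with the log2 TMM factor, 0.766 with summed macrophage markers, 0.758 with summed T cell markers and -0.606 with summed muscle fibre markers. The T cell sum rested on 3 of 8 listed genes, and CD3D, CD3G and CD247 were under the filter in SM. The Post library of animal 21189 had the highest TMM factor, 1.46, and the lowest sum of fibre markers, 44099 CPM. The part of the cell makeup of the biopsies in the SM levels was not tested.

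Between tissues, 32 of 34 ISGs were higher in AT than in SM at Pre (94.1%), next to 41.8% of all genes DE in that direction. The median log2 difference was 2.54 over the ISGs and 0.16 over all genes. OASL had the largest difference, 5.16 (SE 0.77), followed by IFIT2 (3.74, SE 0.36) and OAS2 (3.68, SE 0.33). In CPM, IFIT2 was at 142 ± 77.5 in AT (SD, n = 10) and 6.43 ± 1.89 in SM (n = 6). The exceptions were STAT2 (0.05, SE 0.14, adjusted p = 0.747), at 97.2 ± 26.4 and 53.8 ± 8.85 CPM, and IFI35 (-0.16, SE 0.17, adjusted p = 0.411), at 33.6 ± 12.1 and 20.1 ± 3.55 CPM. Their CPM were each set on the TMM scale of their own tissue, while the difference was fitted on 1 scale for both tissues, and library size alone raised the differences by a median of 0.74 and called 34 of 34.

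Whether an ISG changed differently in the tissues was tested as an interaction of tissue with time point (33 ISGs, adjusted p under 0.05, no fold limit). For Post against Pre no ISG differed (0.0487% of all genes did). An unadjusted p under 0.05 was reached by 3 of 33 ISGs, next to 1306 of all 12322 genes tested. limma and DESeq2 also called 0. For Wash against Post, 5 of 33 differed (15.2%), next to 22.7% of all genes: STAT2 and CMPK2 with a more positive change in AT and EIF2AK2, BST2 and DTX3L with a more negative change in AT. For Wash against Pre, STAT2, EIF2AK2 and DTX3L differed (9.09%), next to 17.5% of all genes. Library size alone shifted these differences by medians of 0.22 and 0.21 and gave 4 and 2 calls, the 4 next to 24.5% of all genes.

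EIF2AK2 had the largest of these differences. Its level in SM ran from 1.70 to 3.68 CPM at Pre and from 2.38 to 6.08 at Wash, which is 0.70 on the log2 scale (SE 0.23, adjusted p = 0.255). The change in AT minus that in SM was -1.88 (SE 0.29, adjusted p = 2.58e-05, edgeR) for Wash against Pre and -1.40 (SE 0.28, adjusted p = 0.000548) for Wash against Post. STAT2 ran from 46.8 to 70.0 CPM at Pre, 40.6 to 66.2 at Post and 39.4 to 51.8 at Wash in SM, and its differences were 0.85 (SE 0.16, adjusted p = 0.000382) and 0.61 (SE 0.16, adjusted p = 0.00648). CMPK2, a mitochondrial nucleotide kinase, had log2 fold changes of 0.47 in AT and -0.48 in SM at Wash against Post, neither DE, and a difference of 0.92 (SE 0.33, adjusted p = 0.0411). BST2 differed by -1.09 (SE 0.31, adjusted p = 0.0125). The CMPK2 call was lost in 8 of 17 alternatives, that of BST2 in 4, and that of DTX3L in 5 for Wash against Post and in 11 for Wash against Pre. Those of STAT2 and EIF2AK2 were kept in each of 17. None of these alternatives held the series of library identifiers as a term, so its part in these differences was not tested.

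**Figure D5:**
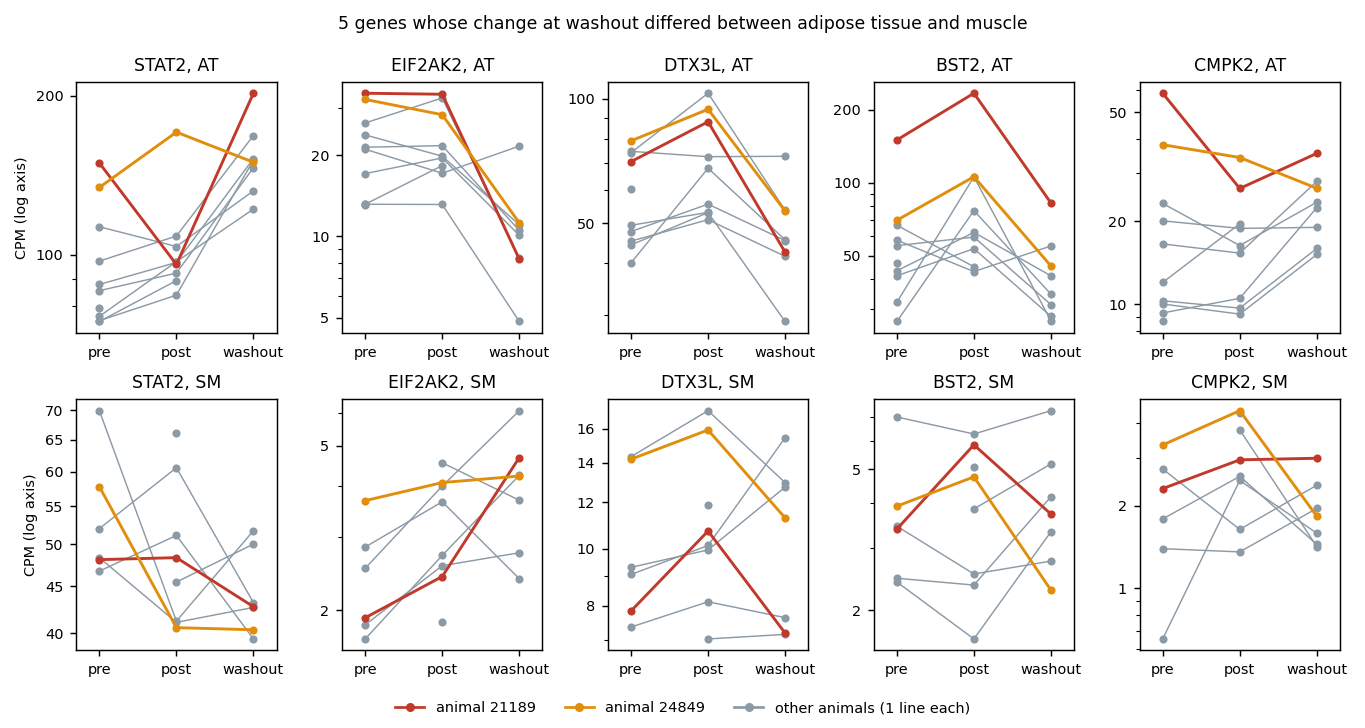
CPM on a log axis of the 5 ISGs whose change at washout differed between tissues, in AT (top) and SM (bottom), with 1 line per animal and 1 point per library. From post-treatment to washout EIF2AK2 is lower in 7 of 8 animals in AT and higher in 5 of 7 in SM, and STAT2 is at 122 to 202 CPM at washout in AT.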

How the data were processed

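RNA was taken from snap-frozen punch biopsies of AT and SM, and polyA RNA was sequenced as paired 50-base reads from TruSeq stranded libraries. Per the study's methods and the labels, the authors aligned reads to the MacaM rhesus genome with STAR and left out libraries with few mapped reads. The deposited table holds raw read counts per gene, and the counting tool is not given in the sources used here. It had 16103 entries, of which 70 were exact repeats and were dropped, and 48 libraries of 51 labelled samples.

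Counts were tested with edgeR 4.0.16 (R 4.3.3): TMM scaling, a filter of 0.5 CPM in 10% of the libraries of a tissue, a model of time point and animal per tissue, and the robust quasi-likelihood F test with Benjamini-Hochberg adjustment over all genes. DE genes passed 0.05 in adjusted p and exceeded 0.26 in log2 fold change, up or down. The SE is the log2 fold change over the square root of F. The interaction tests used 1 model for both tissues, with separate animal terms within each tissue. The test between tissues at Pre used another model for both tissues, with animal terms that the tissues shared. The animal term pairs samples of 1 animal: deviations from time point means had a median r of 0.352 within animals and -0.0354 between them in AT, and 0.279 and -0.0464 in SM. On simulated data with 200 genes changed by 1.5 (log2) at Post, the test recovered 189 of 200 in AT (13367 genes) and 147 in SM (12617 genes), and called 5 and 4 unchanged genes. The simulated libraries held no differences between animals. The change of 1.5 was larger than that of any ISG at Post against Pre, so recovery of changes of the size seen was not measured.

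limma 3.58.1 (voom with quality weights), DESeq2 1.42.0, other filters, scaling and terms, and leaving out each animal were alternatives. The genes and lists were chosen with earlier results of these data known. Values were given for each ISG that was DE, for the 3 with the widest spread per tissue and for IRF7, IRF9 and STAT2. Replicates were separate animals. 1 gene of the pathway lists is not reported here.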

Additional observations from a re-analysis of the deposited data

Results flagged for a closer look

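Across the 17 ISGs given with their values and the mean level of all ISGs, 105 groups of libraries were examined for a library far from the others, and 28 were found. Chance gives about 1 in 20 in unselected and independent groups, but some of these genes were chosen for their spread and the ISGs correlate, so the 28 cannot be read against that rate. Of these, 20 were AT libraries of animal 21189. At Pre its CPM stood apart for ISG15 (71.3), IFI6 (734), MX2 (235), OAS1 (89.4), OASL (58.3), IRF7 (20.1), IRF9 (77.4), DDX60 (62.9), SAMD9L (80.6) and BST2 (150.2). At Post it stood apart for ISG15 (44.9), IFI6 (1066), MX2 (239.9), IRF7 (14.8), DDX60 (62.8) and BST2 (234). At Wash it stood apart for ISG15 (34.6), IFI6 (428), MX2 (116) and IRF9 (68.5).

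The other AT libraries were those of animal 24849 for STAT2 at Post (171 CPM) and USP18 at Wash (41.5), and of animal 26292 for EIF2AK2 at Wash (21.6). In SM they were animal 19832 for IRF7 at Pre (1.55 CPM), animal 20275 for BST2 at Pre (7.01) and animal 22130 at Wash for OAS1 (10.3), USP18 (3.59) and SAMD9L (11.7).

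Differences in change between AT and SM passed the interaction test (edgeR, adjusted p under 0.05) for 5 ISGs at Wash against Post, as log2 change in AT minus that in SM: CMPK2 (0.92), DTX3L (-0.53), EIF2AK2 (-1.40), STAT2 (0.61) and BST2 (-1.09). At Wash against Pre they did so for DTX3L (-0.51), EIF2AK2 (-1.88) and STAT2 (0.85).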

How the results depend on the processing

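Of 24 calls of single ISGs between time points or tissues, 11 were kept in each alternative run and none turned direction. The identifier series was a term only in fits within 1 tissue. Over the 472 pairs of a call with an alternative, the call was lost in 74. Several calls shared each refit, so these pairs are not separate runs. Without the replicate block for animal, DE ISGs in AT numbered 0 at Post against Pre (10.6% of all genes) and 6 at Wash against Post (29.7%). In SM 1 was DE at Wash against Post (1.78% of all genes), and 2 ISGs differed between tissues in that comparison (22.2%). DESeq2 called 2 ISGs at Post against Pre in AT (2607 of all 13367 genes) and gave 7 of 33 an animal effect in SM (21.2%, next to 17.4% of all genes). With no fold limit, 2 ISGs were called at Post against Pre in AT (16.2% of all genes). limma called 6 at Wash against Pre in AT (27.6% of all genes) and 2 as differing between tissues at Wash against Post (18.9% of all genes). With the identifier series as a term, which takes up the 1 AT library of its series, 5 were called at Wash against Pre in AT (24.6% of all genes). In SM that term gave 2 at Wash against Post (21.0%) and 1 at Wash against Pre (10.7%), with 0 animal effects in SM. That count was also 0 with library size alone, with at least 10 counts in every library and with the earlier quasi-likelihood method, which was added after seeing the data. With each animal left out in turn, the DE counts in AT ranged from 0 (without 20261 or 22130) to 2 (without 20456, 23004 or 26292) at Post against Pre and from 2 (without 20261, 20456, 21189, 21866, 23004 or 24849) to 5 (without 26292) at Wash against Pre; animal effects ranged from 11 (without 21189) to 31 in AT and from 0 to 2 in SM, and 2 (without 19832, 20275, 20456, 21866, 22130 or 23004) to 5 (without 24849) ISGs differed between tissues at Wash against Pre. In SM, 8 ISGs had under 10 reads in a library.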
